A study of Mus musculus with 9 samples.

Results

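Guanylate-binding proteins (GBPs) are large GTPases that cells make in response to interferons. The genes described here are Gbp2, Gbp3, Gbp4, Gbp5, Gbp6, Gbp7, Gbp8 and Gbp9, which are 8 of the 45321 annotated mouse genes in the tables and 8 of the 12 annotated Gbp genes and pseudogenes. They were listed by symbol, and the family was chosen by measured values, namely its low CPM in stimulated cells given compound 10. Values in that comparison, and in the comparisons that share its libraries, are therefore a description with no test. All 8 were among the 14011 genes that passed the filter on low counts.

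RNA was sequenced from total CD4+ T cells of the spleen of C57BL/6 mice, a common inbred strain. Cells were kept for 1 h with compound 10 at 12.5 µM or with its vehicle DMSO. Compound 10 is described by the series as a small-molecule inhibitor of NFAT:AP-1, the complex that NFAT and AP-1 factors form on DNA. Cells were next stimulated for 2 h with PMA (10 nM), which activates protein kinase C, and ionomycin (1 µM), a calcium ionophore, or were left unstimulated. The groups were stimulated compound 10 (3 libraries), stimulated vehicle (2), unstimulated compound 10 (2) and unstimulated vehicle (2). The cells were isolated untouched, without a label on the CD4+ cells themselves, and no group carried a genetic change. Nothing in the labels ties the libraries of a group to different mice or cultures. A p-value here thus weighs a difference against the spread among these libraries only, and that spread may be technical. In bulk RNA, fewer cells of a type and less RNA per cell cannot be told apart.

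Libraries held 13886789 to 15693035 estimated counts in stimulated compound 10, 19590608 and 21852830 in stimulated vehicle, 13420384 and 13905405 in unstimulated compound 10, and 10669821 and 16784788 in unstimulated vehicle. Ribosomal RNA took 33.4% of the counts in unstimulated vehicle library 2 and 19.4% in stimulated vehicle library 2, and 9.10% to 16.0% in the other 7 libraries. Il2, which T cells make on stimulation, was at 240 to 429 CPM in stimulated compound 10 and at 1420 and 1605 CPM in stimulated vehicle, and stayed below 1 CPM in every unstimulated library. CPM are counts scaled to the effective size of each library, and so comparable between libraries. Summed CPM of 8 CD4 T cell marker genes were 2189 to 2328 in stimulated compound 10 and 1532 to 1949 in stimulated vehicle. They were 1215 to 1398 in unstimulated compound 10 and 777 to 906 in unstimulated vehicle.

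In macrophages and other infected cells, GBPs assemble on the vacuoles of intracellular parasites and on cytosolic bacteria, break these membranes and help inflammasomes to form. Their transcription is driven mainly by interferon-gamma through its receptor, the kinases JAK1 and JAK2, and transcription factors, IRF1 among them. T cells also transcribe them. The GAS element and the ISRE are promoter motifs of interferon-induced genes, and IRF factors bind the ISRE. In the mouse the genes lie in a cluster on chromosome 3 and another on chromosome 5. By GENCODE M21 annotation (GRCm38), Gbp5, Gbp7, Gbp3 and Gbp2 lie in this order on the plus strand of chromosome 3, between 142493978 and 142638008. Gbp8, Gbp9, Gbp4 and Gbp6 lie on the minus strand of chromosome 5, between 105014150 and 105293698. The annotated spans of Gbp8, Gbp9 and Gbp4 overlap, with start sites within 105139539 to 105139586, so reads from shared first exons can be placed only by the differences further on.

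The promoters of the chromosome 3 members are shown because a motif of interferon-response genes stands in a window of each of the 4 genes. RefSeq promoter windows of build GRCm38.p6 were matched for 4 of the 8 members, Gbp2, Gbp3, Gbp5 and Gbp7, and not for Gbp4, Gbp6, Gbp8 and Gbp9. Each line gives the 250 bases before the start site on the plus strand, with the ISRE-like match in capitals. The lines are Gbp5 at chr3:142496684-142496933, Gbp7 at chr3:142530086-142530335, Gbp3 at chr3:142559794-142560043 and Gbp2 at chr3:142620413-142620662.
Gbp5: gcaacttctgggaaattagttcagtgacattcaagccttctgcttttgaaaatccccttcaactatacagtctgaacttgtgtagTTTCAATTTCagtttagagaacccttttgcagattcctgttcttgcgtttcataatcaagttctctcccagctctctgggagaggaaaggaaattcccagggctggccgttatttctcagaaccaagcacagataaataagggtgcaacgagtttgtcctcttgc
Gbp7: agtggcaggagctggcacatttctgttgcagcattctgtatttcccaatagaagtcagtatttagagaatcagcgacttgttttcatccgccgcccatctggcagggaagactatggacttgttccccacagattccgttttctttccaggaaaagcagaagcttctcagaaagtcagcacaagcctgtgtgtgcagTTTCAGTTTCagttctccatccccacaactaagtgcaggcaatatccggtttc
Gbp3: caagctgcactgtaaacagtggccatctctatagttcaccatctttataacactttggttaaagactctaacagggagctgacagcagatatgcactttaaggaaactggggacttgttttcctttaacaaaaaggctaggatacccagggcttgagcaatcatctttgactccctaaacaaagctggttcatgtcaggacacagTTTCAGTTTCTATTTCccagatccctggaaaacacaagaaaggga
Gbp2: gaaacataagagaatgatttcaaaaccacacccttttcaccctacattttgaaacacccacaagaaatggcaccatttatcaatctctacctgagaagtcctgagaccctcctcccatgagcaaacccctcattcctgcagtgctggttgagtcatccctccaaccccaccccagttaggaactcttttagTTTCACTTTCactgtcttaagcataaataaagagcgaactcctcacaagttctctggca

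The ISRE-like motif, GAAA repeated after any 2 bases, was searched on both strands and shows as a repeated TTTC on the strand printed. It stood in 2.98% of the 32851 promoter windows of 250 bases in the same table, and in a window of 3.46% of the 27025 genes. Gbp3 has a second window, at chr3:142560106-142560355, which holds no match and is not printed. Distances here run to the start site of the RefSeq window. The match lay 59 to 50 bases before the start of Gbp2, 53 to 44 before Gbp7 and 165 to 156 before Gbp5. GENCODE M21 places the starts of Gbp2 and Gbp5 further upstream, at 142620602 and 142493978, so their matches lie inside the genes as annotated there. Gbp3 held a match at 45 to 36 and another that overlapped it at 39 to 30. The GAS letters TTCNNNGAA, the same on both strands, were found at 2 places each in Gbp5 and Gbp7, and in 7.02% of all windows. The AP-1 letters TGANTCA, also the same on both strands, occurred once, as TGAGTCA 102 to 96 bases before Gbp2, and in 6.75% of all windows. The NFAT core GGAAA, which reads TTTCC on the other strand, stood in the windows of Gbp3, Gbp5 and Gbp7 and in 55.6% of all windows, and it overlapped a GAS match in Gbp5 and in Gbp7. These matches are letters and not shown sites of binding.

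Compound 10 in unstimulated cells gives the comparison that shares no library with the stimulated comparison on which the family was chosen. The members were chosen with earlier results of these data known, so this comparison is not shown to be independent of that choice. Here 6 of the 8 genes were called lower, against 2.91% of all genes tested called lower and 4.45% called higher, and the other two were lower without passing the test. In CPM the libraries of the groups did not overlap for any of the 8 genes, a state that 27.3% of all genes tested reached in the lower and 28.2% in the higher direction. Summed over the 8 genes, counts were 96.1 and 87.1 CPM in unstimulated compound 10, against 657 and 517 CPM in unstimulated vehicle. The change of the sum was -2.68 on the log2 scale (SE 0.29; adjusted p = 0.000415, edgeR's quasi-likelihood test with Benjamini-Hochberg adjustment). A call here means an adjusted p under 0.05 in that test over all 14011 genes, 2-sided.

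**Figure D1:**
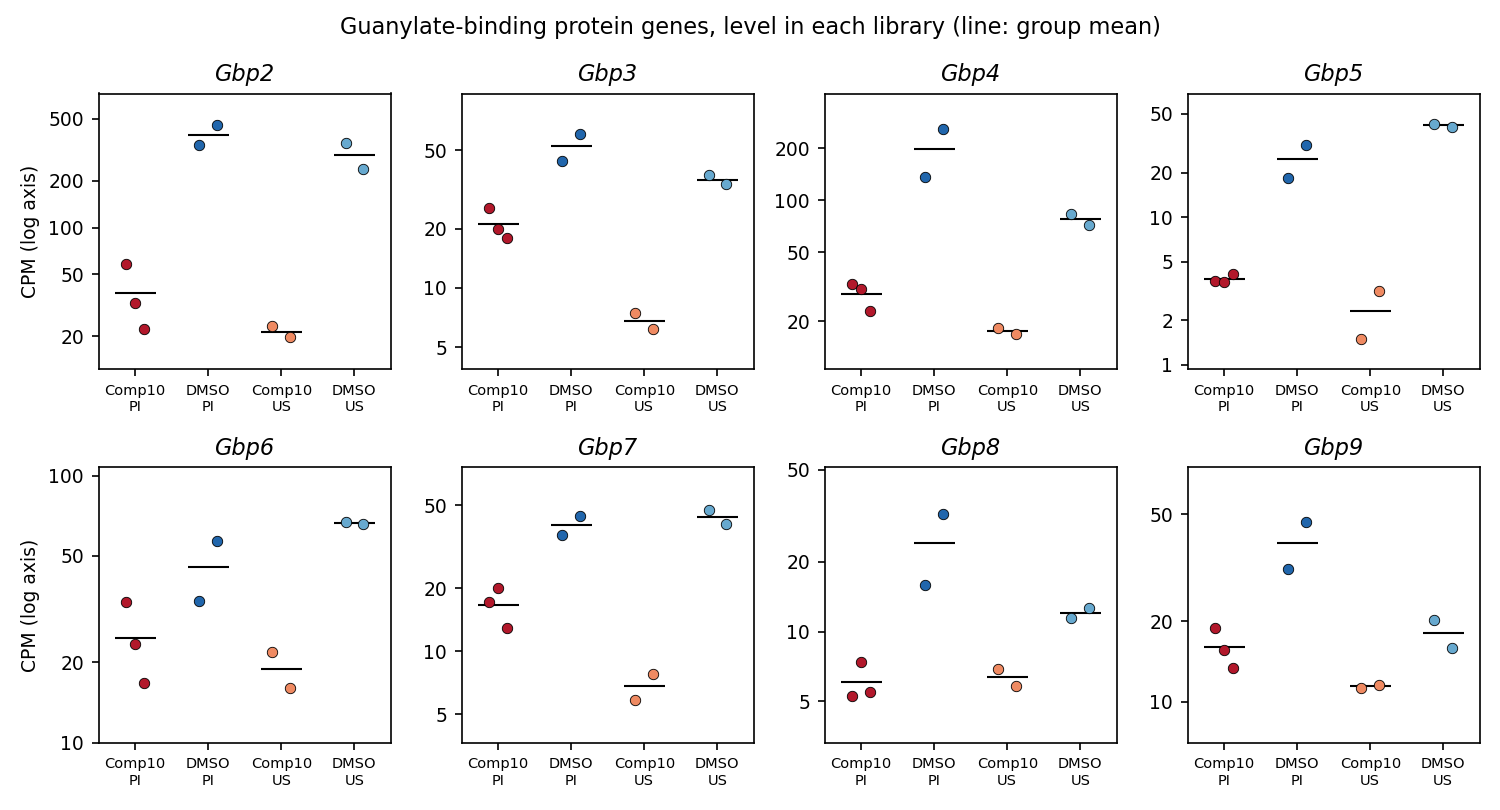
Level of each Gbp gene in CPM (log axis, each panel with its own range) in every library, with a line at the group mean (Comp10, compound 10; DMSO, vehicle; PI, stimulated; US, unstimulated). In all 8 panels the compound 10 libraries lie below the vehicle libraries of the same stimulation state, by the widest margin for Gbp2 and Gbp5 and by the narrowest for Gbp6 in stimulated cells (33.7 CPM in the highest compound 10 library, 33.9 CPM in the lowest vehicle library).

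The members that fell furthest were on chromosome 3. Gbp5, which in mouse macrophages promotes inflammasome assembly, had 1.49 and 3.15 CPM in unstimulated compound 10, against 43.0 and 40.9 CPM in unstimulated vehicle. The mean was 18.0-fold lower, and the change was -4.15 (SE 0.35; adjusted p = 0.000115, edgeR). On the log2(TPM + 1) scale the change of Gbp5 was -3.13. The compound 10 values rest on 23 and 57 estimated counts. Ordered by fitted log2 change, Gbp5 stood at place 21 from the lowest of the 14011 genes.

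Gbp2, a GBP that carries a lipid anchor and is recruited to Toxoplasma vacuoles in the mouse, had 23.2 and 19.7 CPM in unstimulated compound 10, against 347 and 236 CPM in unstimulated vehicle. Its mean was 13.6-fold lower, with a change of -3.76 (SE 0.43; adjusted p = 0.00142, edgeR), and it stood at place 37 from the lowest. Gbp7, also an interferon-gamma-inducible GBP of the chromosome 3 cluster, had 5.84 and 7.80 CPM in unstimulated compound 10, against 47.7 and 40.7 CPM in unstimulated vehicle. The vehicle libraries stood well clear of the higher compound 10 library, and the change was -2.69 (SE 0.26; adjusted p = 0.000247, edgeR). Gbp3 had 7.47 and 6.20 CPM in unstimulated compound 10, against 37.2 and 33.6 CPM in unstimulated vehicle, a change of -2.37 (SE 0.24; adjusted p = 0.000309, edgeR).

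The chromosome 5 members differed by less on the log2 scale. Gbp4 had 18.1 and 16.8 CPM in unstimulated compound 10, against 83.5 and 71.8 CPM in unstimulated vehicle, a change of -2.15 (SE 0.29; adjusted p = 0.00149, edgeR). Gbp6 had 21.9 and 16.0 CPM in unstimulated compound 10, against 67.3 and 65.9 CPM in unstimulated vehicle, a change of -1.81 (SE 0.33; adjusted p = 0.0101, edgeR). The Gbp6 call was lost when any of the 4 unstimulated libraries was left out, with adjusted p = 0.0526 without compound 10 library 1, 0.0888 without compound 10 library 2, 0.0576 without vehicle library 1 and 0.0555 without vehicle library 2 (edgeR). The call was also lost on log2(TPM + 1) (0.0620, limma) and log2(TPM + 0.1) (0.0789, limma). Its log2 change stayed between -2.06 and -1.60 with a library of these groups left out.

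In CPM, Gbp8 and Gbp9 lay lower under compound 10 in every library, and they did not pass the test. Gbp8 had 6.88 and 5.81 CPM in unstimulated compound 10, against 11.5 and 12.6 CPM in unstimulated vehicle (-0.93, SE 0.32; adjusted p = 0.101, edgeR). Gbp8 passed the test with no filter (adjusted p = 0.0453, edgeR), in a fit of the unstimulated libraries alone (0.0327, edgeR) and without stimulated vehicle library 1 (0.0464, edgeR), where 14968 genes were tested. Gbp9 had 11.2 and 11.6 CPM in unstimulated compound 10, against 20.2 and 15.8 CPM in unstimulated vehicle (-0.66, SE 0.25; adjusted p = 0.138, edgeR). In TPM the groups of Gbp9 overlapped, at 3.70 and 4.28 in unstimulated compound 10 and 8.33 and 4.12 in unstimulated vehicle.

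Summed by cluster, the 4 members on chromosome 3 had 38.1 and 36.9 CPM in unstimulated compound 10, against 475 and 351 CPM in unstimulated vehicle (-3.46, SE 0.30; adjusted p = 0.000129, edgeR). The 4 members on chromosome 5 had 58.1 and 50.2 CPM in unstimulated compound 10, against 182 and 166 CPM in unstimulated vehicle (-1.69, SE 0.29; adjusted p = 0.00571, edgeR). The chromosome 5 call was lost on log2(TPM + 1) (adjusted p = 0.0612, limma), on log2(TPM + 0.1) (0.0723, limma) and without unstimulated compound 10 library 2 (0.0606, edgeR). With protein-coding transcripts only, that sum changed by -0.80 (adjusted p = 0.0912, edgeR). The chromosome 3 sum stayed called in all 22 alternatives, and the difference between the clusters was not tested.

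**Figure D2:**
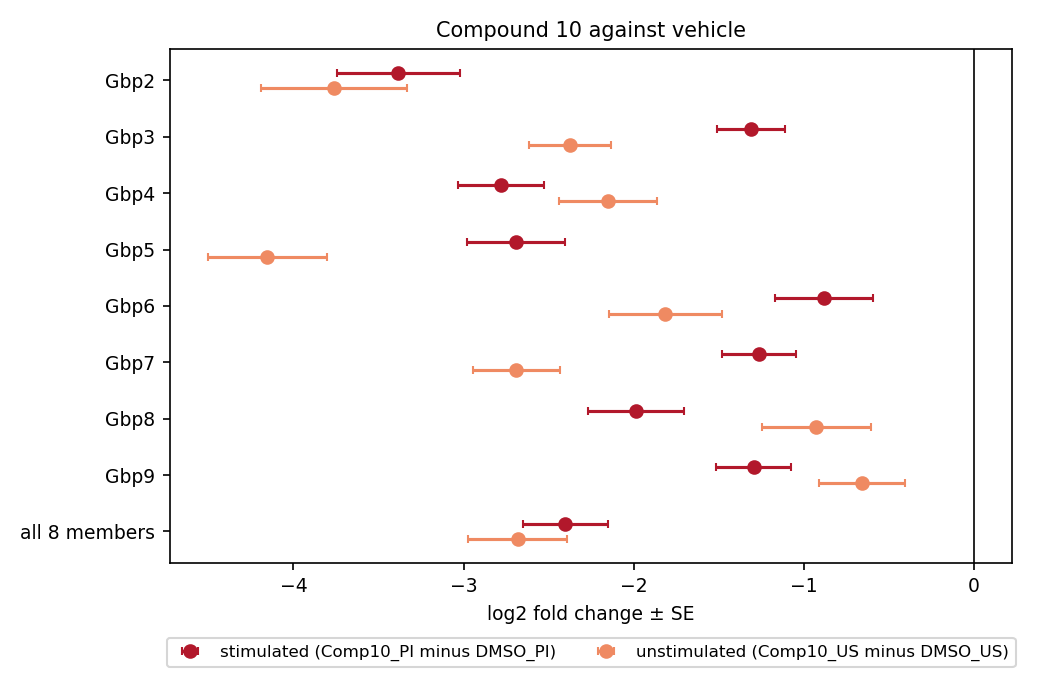
Log2 fold change of each Gbp gene and of the sum of the 8 with compound 10 against vehicle, in stimulated and in unstimulated cells (points; bars are 1 SE of the fit). All points lie left of 0, from -0.66 (Gbp9) to -4.15 (Gbp5) in unstimulated cells and from -0.88 (Gbp6) to -3.39 (Gbp2) in stimulated cells.

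In stimulated cells the family was chosen for its low level under compound 10, so the values that follow describe it and support nothing. No library overlapped between the groups for any of the 8, a state that 23.1% of all genes reached in the lower and 24.2% in the higher direction. Summed counts were 195, 154 and 116 CPM in stimulated compound 10, against 653 and 985 CPM in stimulated vehicle (-2.40, SE 0.25). The stimulated and the unstimulated comparison share no library, although both draw on the estimate of spread of the same fit.

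Gbp2 had 58.3, 32.8 and 22.3 CPM in stimulated compound 10, against 338 and 453 CPM in stimulated vehicle (-3.39, SE 0.36). Gbp4 had 32.9, 30.7 and 22.8 CPM in stimulated compound 10, against 136 and 260 CPM in stimulated vehicle (-2.78, SE 0.25). Gbp5 had 3.69, 3.65 and 4.10 CPM in stimulated compound 10, against 18.4 and 30.9 CPM in stimulated vehicle (-2.69, SE 0.29). Vehicle library 2 was the higher of the pair for all 8 genes. Without it, the changes were -2.24 for Gbp4, -2.28 for Gbp5 and -1.40 for Gbp8.

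Gbp8 had 5.29, 7.36 and 5.50 CPM in stimulated compound 10, against 16.0 and 32.2 CPM in stimulated vehicle (-1.99, SE 0.28). Gbp3 had 25.3, 19.9 and 18.0 CPM in stimulated compound 10, against 44.1 and 60.4 CPM in stimulated vehicle (-1.31, SE 0.20). Gbp9 had 18.8, 15.6 and 13.4 CPM in stimulated compound 10, against 31.3 and 47.0 CPM in stimulated vehicle (-1.29, SE 0.22). Gbp3 and Gbp9 thus differed by less than Gbp2, Gbp4 and Gbp5, with the groups still apart. Gbp7 had 17.1, 20.2 and 12.9 CPM in stimulated compound 10, against 36.2 and 44.4 CPM in stimulated vehicle (-1.26, SE 0.21). Gbp6 had 33.7, 23.5 and 16.7 CPM in stimulated compound 10, against 33.9 and 57.0 CPM in stimulated vehicle (-0.88, SE 0.29). For Gbp6 the nearest libraries of the groups were close to equal, and without vehicle library 2 its change was -0.46.

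The order of the members differed between the stimulation states. In stimulated cells the lowest log2 changes were those of Gbp2, Gbp4, Gbp5 and Gbp8, and in unstimulated cells those of Gbp5, Gbp2, Gbp7 and Gbp3. The change with compound 10 in stimulated cells minus that in unstimulated cells was 1.46 for Gbp5 (SE 0.44), 1.43 for Gbp7 (SE 0.33), 1.06 for Gbp3 (SE 0.31), 0.93 for Gbp6 (SE 0.44) and 0.38 for Gbp2 (SE 0.53) on the log2 scale. It was -1.06 for Gbp8 (SE 0.43), -0.64 for Gbp9 (SE 0.34) and -0.63 for Gbp4 (SE 0.38). These differences use the libraries of the choice and were not tested.

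With PMA and ionomycin in vehicle cells, some members lay higher and others lower. Summed counts were 653 and 985 CPM in stimulated vehicle, against 657 and 517 CPM in unstimulated vehicle, so the groups overlapped (0.48, SE 0.27). In CPM, Gbp3, Gbp4, Gbp8 and Gbp9 were higher in both stimulated libraries than in both unstimulated ones, and Gbp5 and Gbp6 were lower. Gbp2 and Gbp7 overlapped, and in TPM Gbp3, Gbp6 and Gbp8 overlapped as well. Of all genes tested, 29.3% were apart in CPM in the higher and 34.1% in the lower direction, and 14.4% were called higher and 13.8% lower.

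The log2 change with stimulation in vehicle was 1.35 for Gbp4 (SE 0.28), 1.12 for Gbp9 (SE 0.25), 1.00 for Gbp8 (SE 0.31) and 0.56 for Gbp3 (SE 0.22). On the log2(TPM + 1) scale that of Gbp3 was -0.04. It was -0.77 for Gbp5 (SE 0.29) and -0.55 for Gbp6 (SE 0.32). Without stimulated vehicle library 2, the change was 0.82 for Gbp4, 0.41 for Gbp8, -1.18 for Gbp5 and -0.97 for Gbp6. Gbp2 (0.44, SE 0.38) and Gbp7 (-0.13, SE 0.23) lay within about 1 SE of 0, and that of Gbp2 was -0.03 without the library of each vehicle group that was richest in ribosomal RNA.

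Under compound 10, no member was lower in CPM in all stimulated libraries than in both unstimulated ones, and Gbp3, Gbp4, Gbp5, Gbp7 and Gbp9 were higher. Of all genes tested, 24.2% were apart in the higher and 25.4% in the lower direction. Summed counts were 195, 154 and 116 CPM in stimulated compound 10, against 96.1 and 87.1 CPM in unstimulated compound 10 (0.76, SE 0.26). The log2 change was 1.62 for Gbp3 (SE 0.23) and 1.29 for Gbp7 (SE 0.24), the members furthest up, and -0.06 for Gbp8 (SE 0.30). Gbp5 was at 3.69, 3.65 and 4.10 CPM in stimulated compound 10, against 1.49 and 3.15 CPM in unstimulated compound 10 (0.69, SE 0.33; 1.34 without unstimulated compound 10 library 2). In TPM the libraries of Gbp4, Gbp5, Gbp9 and the sum overlapped between these groups. The change on log2(TPM + 1) was 0.16 for Gbp5, 0.36 for Gbp4, 0.11 for Gbp9 and 0.43 for the sum. Even the stimulated compound 10 sum stayed below that of every vehicle library.

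**Figure D3:**
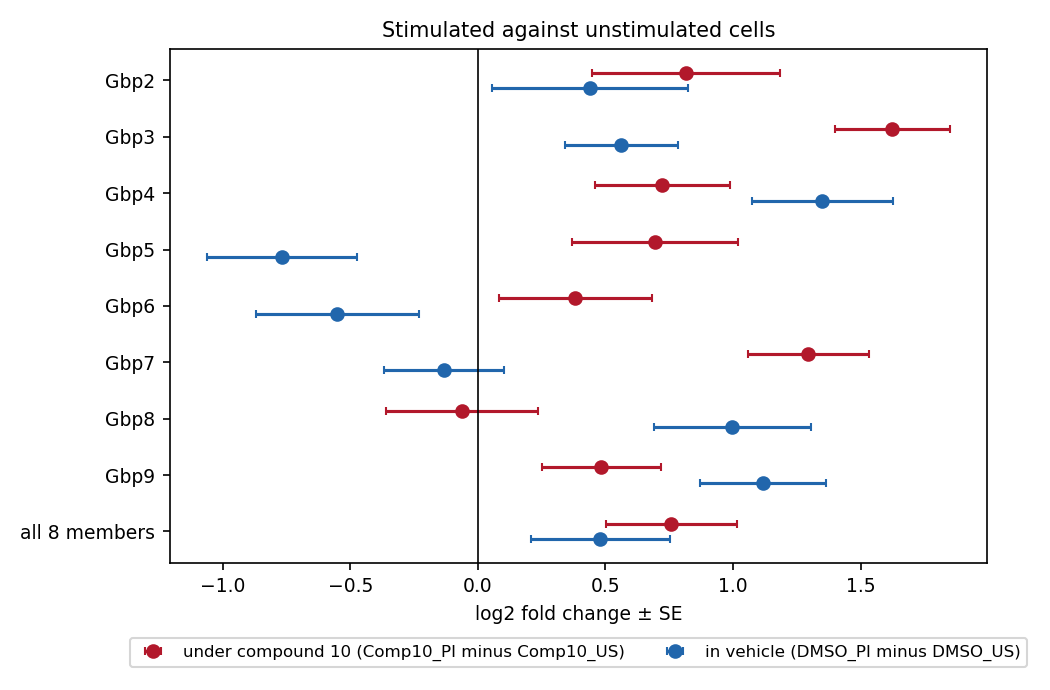
Log2 fold change of each Gbp gene and of the sum of the 8 with stimulation, under compound 10 and in vehicle (points; bars are 1 SE of the fit). In vehicle the genes spread from -0.77 (Gbp5) to 1.35 (Gbp4), and under compound 10 from -0.06 (Gbp8) to 1.62 (Gbp3).

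Levels of different genes can be set side by side only per transcript length, as the deposited TPM, in which counts are divided by transcript length. Gbp2 had the highest mean TPM of the 8 genes in every group, at 12.7 TPM in stimulated compound 10 and 137 TPM in stimulated vehicle, and at 9.42 TPM in unstimulated compound 10 and 131 TPM in unstimulated vehicle. Gbp4 came next in the vehicle groups, with 54.5 TPM stimulated and 24.7 TPM unstimulated. Gbp5 was the lowest, at 0.963 TPM in stimulated compound 10 and 6.93 TPM in stimulated vehicle, and at 0.787 TPM in unstimulated compound 10. In unstimulated vehicle it stood above Gbp7, Gbp9 and Gbp8 at 14.7 TPM. By its libraries, Gbp2 was apart from the next gene in 3 groups and overlapped Gbp3 in stimulated compound 10. The libraries of Gbp4 overlapped those of Gbp6 in unstimulated vehicle, and in stimulated vehicle those of Gbp6, Gbp9, Gbp7, Gbp8 and Gbp5 overlapped from each to the next in order.

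Gbp2 made up 26.0% ± 6.80 of the family's TPM in stimulated compound 10 (SD, n = 3) and 53.7% ± 3.52 in stimulated vehicle (SD, n = 2). The share was 27.9% ± 2.44 in unstimulated compound 10 and 55.4% ± 4.97 in unstimulated vehicle (SD, n = 2 each). Gbp6 made up 14.3% ± 1.43 in stimulated compound 10 and 4.76% ± 0.271 in stimulated vehicle. Its share was 17.9% ± 3.51 in unstimulated compound 10 and 8.48% ± 1.00 in unstimulated vehicle. In both states the compound 10 libraries thus had a lower share of Gbp2, and higher shares of Gbp6, Gbp8 and Gbp9, than the vehicle libraries. In unstimulated cells the mean share of Gbp8 was 8.85% with compound 10 and 2.28% with vehicle. For Gbp9 it was 11.8% and 2.67%, while Gbp5 went the other way, with 2.30% and 6.61%. The shares of Gbp3 and Gbp7 were higher with compound 10 in stimulated cells and overlapped in unstimulated cells. Shares are parts of the same total and do not move independently.

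Close paralogs limit how reads are assigned. The coding sequence of Gbp6 is identical to that of Gbp10 at 98.4% of aligned positions, gaps counted, to Gbp9 at 89.6% and to Gbp4 at 87.2%. Of all stretches of 31 bases in the annotated Gbp6 transcripts, 57.6% also occur in another Gbp gene. The part is 31.1% for Gbp8, 18.3% for Gbp9 and 13.5% for Gbp4. On chromosome 3 it is 5.64% for Gbp3, 4.85% for Gbp2, 3.69% for Gbp7 and 0.195% for Gbp5. The levels of the chromosome 5 members, Gbp6 most of all, are therefore less certain than those of the chromosome 3 members. Gbp10 was at 0.310 to 3.10 CPM in stimulated compound 10 and 0.945 and 1.20 CPM in stimulated vehicle, and at 0.759 and 2.61 CPM in unstimulated compound 10 and 0.985 and 1.46 CPM in unstimulated vehicle. It was not called with compound 10 in either state (adjusted p = 0.689 stimulated and 0.788 unstimulated, edgeR).

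The sum of Gbp4, Gbp6, Gbp9 and Gbp10 does not depend on how reads were split among them. It leaves out Gbp8, which shares stretches of 31 bases with Gbp9. The sum was 53.8 and 45.2 CPM in unstimulated compound 10, against 172 and 154 CPM in unstimulated vehicle (-1.72, SE 0.30; adjusted p = 0.00619, edgeR). The call was lost on log2(TPM + 1) (adjusted p = 0.0567, limma) and log2(TPM + 0.1) (0.0651, limma), and without unstimulated compound 10 library 1 (0.0501, edgeR) or library 2 (0.0668, edgeR). In stimulated cells it was 88.6, 71.0 and 53.1 CPM with compound 10, against 202 and 365 CPM with vehicle, and no library overlapped. Gbp2 with its paralog Gbp2b gave -3.76 (SE 0.43; adjusted p = 0.00135, edgeR) in unstimulated cells, close to Gbp2 alone, since Gbp2b held at most 8.04 estimated counts in any library. Gbp11, annotated as a polymorphic pseudogene, was not called with compound 10 (adjusted p = 0.238 in stimulated and 0.0773 in unstimulated cells, edgeR), and 44.3 of its estimated counts lay in unstimulated vehicle library 2. The pseudogene Gbp2-ps was listed at 0 in every library.

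The tables give each transcript its own estimate, and for Gbp4 and Gbp6 the shares of the annotated forms did not overlap between stimulated and unstimulated cells. The forms of Gbp7, both annotated as protein coding, did overlap. Of their counts, Gbp7-202 took 35.2% to 58.2% in stimulated and 27.2% to 46.2% in unstimulated libraries. Of their TPM, this shorter form took 56.2% to 76.6% in stimulated and 46.9% to 66.9% in unstimulated libraries. How often such shares separate among all genes was not counted. The forms Gbp4-201 and Gbp4-202 share 4509 bases and differ by 29 bases at the end of exon 2, at chr5:105136810-105136838 on the minus strand (GRCm38). The bases are shown in capitals with 24 bases on each side, in the direction of the transcript, because they are the bases that tell the forms apart.
Gbp4-201: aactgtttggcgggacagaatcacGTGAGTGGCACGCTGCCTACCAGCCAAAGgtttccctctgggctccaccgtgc
Gbp4-202: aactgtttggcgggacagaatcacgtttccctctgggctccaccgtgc

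Gbp4-201 is annotated as protein coding and Gbp4-202 as a target of nonsense-mediated decay, the pathway that degrades transcripts with an early stop codon. Within coding sequence, leaving out 29 bases would shift the reading frame, as 29 divided by 3 leaves 2. Whether these bases lie within the coding sequence of Gbp4-201 was not checked. Of the counts of the pair, Gbp4-201 took 60.5%, 39.0% and 78.1% in stimulated compound 10 and 51.1% and 46.5% in stimulated vehicle. It took 31.9% and 9.30% in unstimulated compound 10 and 9.01% and 0.0455% in unstimulated vehicle. Every stimulated library was above every unstimulated one, and within stimulated cells compound 10 and vehicle overlapped.

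Gbp6-201, the coding form, holds an exon of 128 bases that Gbp6-203, annotated as a target of nonsense-mediated decay, lacks, and the forms also end differently. Of the counts of these forms, Gbp6-201 took 61.6%, 89.2% and 65.9% in stimulated compound 10 and 68.1% and 61.2% in stimulated vehicle. It took 53.2% and 43.7% in unstimulated compound 10 and 29.7% and 17.7% in unstimulated vehicle. Again the stimulated libraries lay above the unstimulated ones, and in unstimulated cells those with compound 10 lay above those with vehicle. Gbp6-203 is the longer form, and in TPM the mean shares of Gbp6-201 were larger. They were 80.6% in stimulated compound 10, 75.1% in stimulated vehicle, 60.7% in unstimulated compound 10 and 33.8% in unstimulated vehicle. The same groups lay apart in TPM. The tables give no interval for these shares. For Gbp2, by contrast, the coding form took 99.0% to 100% of the counts in every library.

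**Figure D4:**
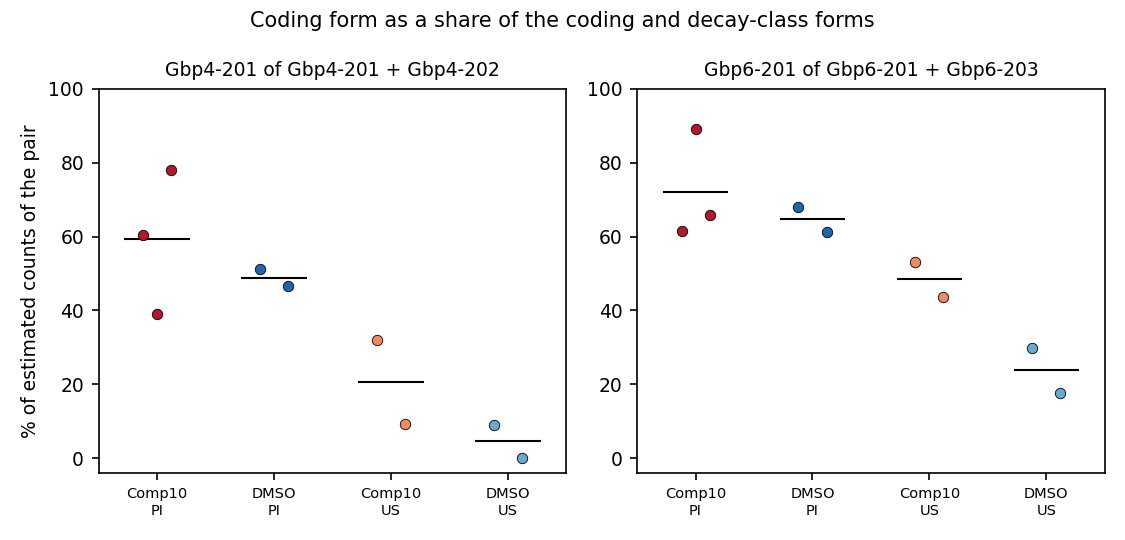
Share of the counts of a pair of annotated forms that was assigned to Gbp4-201 (against Gbp4-202) and to Gbp6-201 (against Gbp6-203), in percent, for every library, with a line at the group mean (Comp10, compound 10; DMSO, vehicle; PI, stimulated; US, unstimulated). Stimulated libraries lie between 39.0% and 78.1% for Gbp4-201, against 0.0455% to 31.9% in unstimulated libraries, and between 61.2% and 89.2% for Gbp6-201, against 17.7% to 53.2%.

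Restricting each gene to its protein-coding transcripts left Gbp2, Gbp3, Gbp5 and Gbp7 called in unstimulated cells, whereas Gbp4 and Gbp6 were not and Gbp9 was called, in this one of the 22 alternatives (-0.83; adjusted p = 0.0468, edgeR). The change with compound 10 was then -0.72 for Gbp4 (adjusted p = 0.452, edgeR) and -0.78 for Gbp6 (adjusted p = 0.259, edgeR). The sum of Gbp4, Gbp6, Gbp9 and Gbp10 gave -0.73 (adjusted p = 0.163, edgeR). In stimulated cells the change of coding Gbp4 was -2.61. Stimulation in vehicle gave 3.95 for coding Gbp4 and 0.91 for coding Gbp6, the opposite sign to all Gbp6 transcripts. Coding Gbp5 gave -5.05 with compound 10 in unstimulated cells (adjusted p = 6.75e-05, edgeR), -0.33 with stimulation in vehicle and 1.57 with stimulation under compound 10. For Gbp4, Gbp5 and Gbp6 the size of a change thus depended on which annotated forms were counted.

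The other genes of the pathway are described in the order from signal to effector, from lists chosen with earlier results of these data known. Of 17 ligands, receptors, kinases and their inhibitors, 14 were tested. In unstimulated cells compound 10 raised 2 of them and lowered 2, where 4.45% of all genes were called higher and 2.91% lower. In stimulated cells it raised 4 and lowered 3, where 23.1% of all genes were called (11.7% higher and 11.4% lower). Limma on TPM called 1 of the list in each direction in each state. The list's median was 0.26 in unstimulated and -0.11 in stimulated cells, against -0.01 and 0.00 for all genes tested.

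Ifng, the gene of interferon-gamma itself, was at 1240, 755 and 728 CPM in stimulated compound 10, against 1849 and 791 CPM in stimulated vehicle (-0.54, SE 0.41; adjusted p = 0.408, edgeR). It was at 38.3 and 27.3 CPM in unstimulated compound 10, against 27.9 and 14.2 CPM in unstimulated vehicle (0.64, SE 0.47; adjusted p = 0.478, edgeR). The groups overlapped in stimulated and in unstimulated cells, so a difference of Ifng with compound 10 was not detectable here. Stimulation in vehicle raised Ifng by 5.97 (SE 0.57; adjusted p = 8.23e-05, edgeR), while the summed Gbp counts overlapped between these groups.

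Ifngr1, the ligand-binding chain of the interferon-gamma receptor, was higher with compound 10 in both states. It had 153, 155 and 156 CPM in stimulated compound 10, against 41.5 and 48.7 CPM in stimulated vehicle (1.78, SE 0.18; adjusted p = 6.68e-05, edgeR). It had 510 and 476 CPM in unstimulated compound 10, against 209 and 187 CPM in unstimulated vehicle (1.32, SE 0.18; adjusted p = 0.00153, edgeR). Ifngr2, the signalling chain, rose in stimulated cells (0.99, SE 0.17; adjusted p = 0.00178, edgeR) and gave 0.50 in unstimulated cells (adjusted p = 0.120, edgeR). Jak1 fell in stimulated cells (-0.87, SE 0.18; adjusted p = 0.00466, edgeR) and gave -0.39 in unstimulated cells (adjusted p = 0.286, edgeR). Socs1, an inhibitor of JAK kinases that interferon induces, fell in unstimulated cells (-1.71, SE 0.24; adjusted p = 0.00172, edgeR) and gave -0.17 in stimulated cells (adjusted p = 0.635, edgeR).

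Among 14 tested transcription factors of the response, of 16 listed, compound 10 lowered 5 in unstimulated cells, and lowered 5 and raised 2 in stimulated cells. Of all genes tested, 2.91% were called lower in unstimulated cells, and 11.4% lower and 11.7% higher in stimulated cells. Limma on log2(TPM + 1) and log2(TPM + 0.1) called 1 and 2 of the factors lower in unstimulated cells. In stimulated cells these scales gave 3 and 2 factors lower, and 1 higher on each. In unstimulated cells 0 were called higher by edgeR, DESeq2 or limma on TPM, with 1 at an unadjusted p under 0.05 (edgeR). The list's medians were -0.75 in unstimulated and -0.55 in stimulated cells.

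Irf8, a factor that binds ISRE-like elements with partners, fell in stimulated cells (-2.25, SE 0.17; adjusted p = 1.30e-05, edgeR) and in unstimulated cells (-1.86, SE 0.19; adjusted p = 0.000309, edgeR). Irf1 fell by less, by 0.75 in stimulated cells (SE 0.18; adjusted p = 0.0100, edgeR) and by 0.95 in unstimulated cells (SE 0.20; adjusted p = 0.0159, edgeR). Stat2 went the other way in stimulated cells, with 29.8, 20.8 and 17.5 CPM in stimulated compound 10, against 5.22 and 7.07 CPM in stimulated vehicle (1.89, SE 0.28; adjusted p = 0.000545, edgeR). It was not called in unstimulated cells (0.36, SE 0.27; adjusted p = 0.485, edgeR).

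The immunity-related GTPases of the IRG family, smaller GTPases that act with GBPs on parasite vacuoles, were lower with compound 10 throughout. All 8 tested of 9 listed were called lower with compound 10 in unstimulated cells (median -2.23) and in stimulated cells (median -2.89). Of all genes tested, 2.91% were called lower in unstimulated and 11.4% in stimulated cells. In unstimulated cells limma called 7 of the 8 lower on log2(TPM + 1) and 6 on log2(TPM + 0.1). In stimulated cells it called 8 on each scale. Ifi47 had 142, 126 and 136 CPM in stimulated compound 10, against 989 and 1172 CPM in stimulated vehicle (-3.01, SE 0.18; adjusted p = 4.40e-06, edgeR). In unstimulated cells Tgtp1 had 37.0 and 35.8 CPM with compound 10, against 551 and 421 CPM with vehicle (-3.74, SE 0.28; adjusted p = 0.000114, edgeR). Tgtp1 and Tgtp2 are close copies, so their separate values are uncertain. Of the 5 tested relatives among large GTPases (7 listed, with atlastins and Mx proteins), 0 were called with compound 10 in either state by edgeR, DESeq2 or limma on TPM, and 1 had an unadjusted p under 0.05 in each state (edgeR).

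Partners through which GBPs act, namely inflammasome and autophagy genes, changed in both directions in stimulated cells. Of 16 tested (17 listed), compound 10 raised 2 and lowered 3 in stimulated cells, where 23.1% of all genes were called, and raised 1 in unstimulated cells, where 7.36% were. Limma on TPM called 1 partner higher and 1 lower in stimulated cells, and 0 higher in unstimulated cells. In unstimulated cells 0 were called lower by edgeR, DESeq2 or limma on TPM, with 1 at an unadjusted p under 0.05 (edgeR). Pycard, the inflammasome adaptor, rose in stimulated cells (1.84, SE 0.21; adjusted p = 0.000139, edgeR) and in unstimulated cells (0.85, SE 0.22; adjusted p = 0.0359, edgeR). Casp4, the caspase that senses bacterial lipopolysaccharide, fell in stimulated cells (-1.32, SE 0.31; adjusted p = 0.00841, edgeR) and gave 0.09 in unstimulated cells (adjusted p = 0.926, edgeR). Gsdmd, the pore protein that these caspases cleave, rose in stimulated cells (1.06, SE 0.26; adjusted p = 0.0105, edgeR) and gave 1.00 in unstimulated cells (adjusted p = 0.0503, edgeR).

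With stimulation in vehicle, where 28.1% of all genes were called, the counts of higher and lower genes were 5 and 2 of 14 for ligands, receptors and kinases, 6 and 4 of 14 for transcription factors, 1 and 2 of 8 for IRG GTPases, 1 and 0 of 5 for other large GTPases, and 4 and 1 of 16 for partners. Under compound 10, where 21.8% of all genes were called (11.0% higher and 10.8% lower), they were 3 and 3, 5 and 3, 1 and 4, 2 and 0, and 4 and 0 in the same order of lists. Stimulation lowered Irf1, with -1.15 in vehicle (SE 0.20; adjusted p = 0.00127, edgeR) and -0.94 under compound 10 (SE 0.18; adjusted p = 0.00275, edgeR). It raised Irf8 by 2.63 in vehicle (SE 0.19; adjusted p = 2.20e-06, edgeR) and by 2.24 under compound 10 (SE 0.18; adjusted p = 6.56e-06, edgeR).

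**Figure D5:**
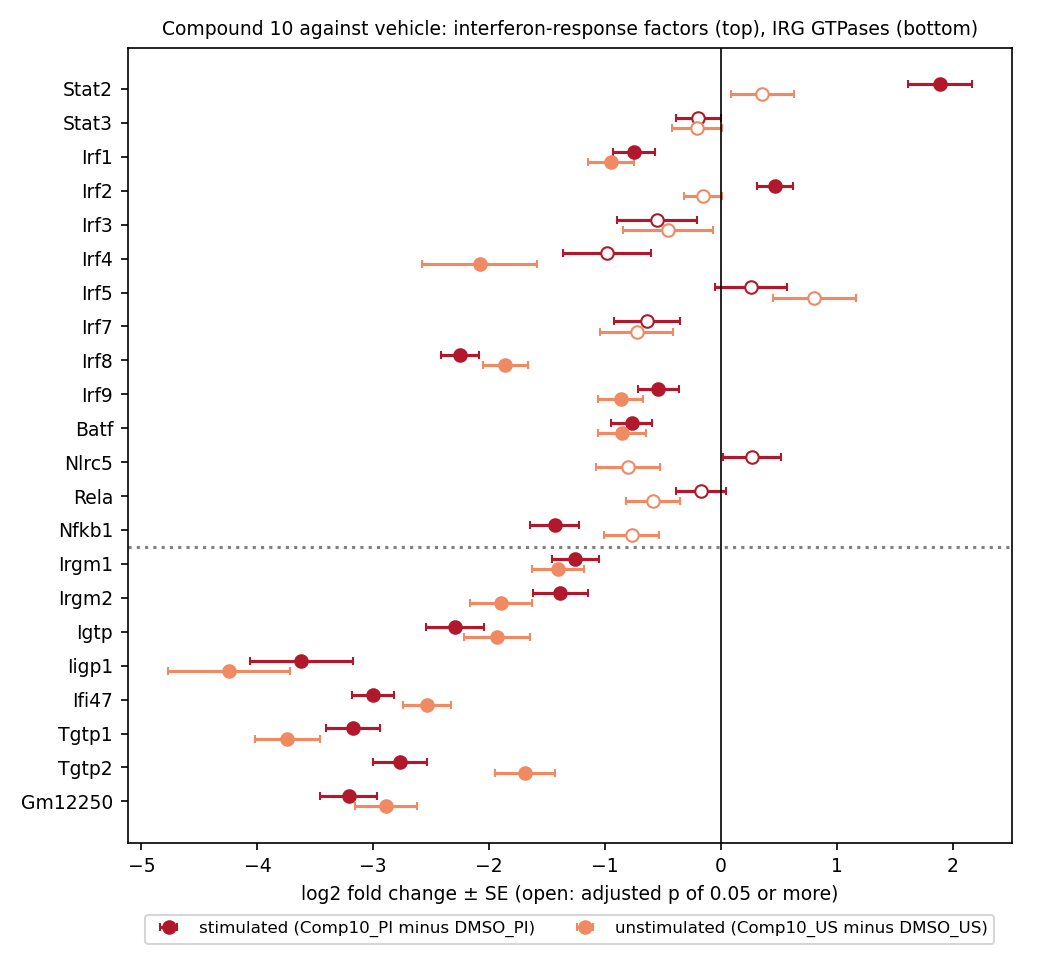
Log2 fold change with compound 10 against vehicle for the 14 tested interferon-response factors (above the dotted line) and the 8 tested IRG GTPases (below it), in stimulated and unstimulated cells (bars are 1 SE; filled points have an adjusted p under 0.05, edgeR). All 8 IRG GTPases lie left of 0 in both states, with medians of -2.89 and -2.23, while Stat2 and Irf2 are the factors called to the right of 0, in stimulated cells.

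The 5 genes outside the family whose log2 CPM over the 9 libraries were most like the summed Gbp counts, over 4865 genes whose log2 CPM averaged 4 or more, were Nmi (Pearson r = 0.988), Pmpcb (0.971), Srsf1 (0.969), Srsf3 (0.969) and Tmem167 (0.965). Nmi, itself an interferon-inducible gene, had 12.1, 12.8 and 9.78 CPM in stimulated compound 10, against 24.2 and 24.2 CPM in stimulated vehicle. It had 9.03 and 8.58 CPM in unstimulated compound 10, against 23.2 and 19.9 CPM in unstimulated vehicle. The genes of splicing factors Srsf1 and Srsf3 were lower with compound 10, with -2.85 for Srsf3 in stimulated cells (SE 0.23) and -2.32 in unstimulated cells (SE 0.26). All 5 genes were picked by likeness over these same libraries, so their changes are a description with no test. Likeness over 9 libraries of 4 groups mostly restates the difference between compound 10 and vehicle, and the libraries share depth and scaling. Among the members themselves, r over the same libraries ran from 0.610 (Gbp6 and Gbp9) to 0.954 (Gbp2 and Gbp4).

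Markers of other cells were examined because macrophages express Gbp genes strongly once exposed to interferon. The summed CPM of 8 monocyte, macrophage and dendritic cell markers were 6.55 to 8.50 in stimulated compound 10 and 6.54 to 9.59 in stimulated vehicle, and 5.70 to 7.39 in unstimulated compound 10 and 5.97 to 8.14 in unstimulated vehicle. Adgre1, Csf1r, Itgax, Cd209a and Cd14 of this list were below 1 CPM in every library, and 0 of its 3 tested genes were called with compound 10 by edgeR, DESeq2 or limma on TPM, nor did any have an unadjusted p under 0.05 (edgeR). B cell markers summed to 432 to 902 CPM over all libraries, with overlap between compound 10 and vehicle in each state and 0 of 5 tested genes called by edgeR, DESeq2 or limma on TPM (1 at an unadjusted p under 0.05, in unstimulated cells, edgeR). Neutrophil markers summed to at most 3.31 CPM and CD8 T cell markers to 4.41 to 7.33 CPM. Natural killer cell markers moved with compound 10, at 18.2 to 24.6 CPM in stimulated compound 10 and 6.27 to 8.33 CPM in stimulated vehicle, and 11.7 to 13.3 CPM in unstimulated compound 10 and 4.90 to 6.34 CPM in unstimulated vehicle. Of their 5 tested genes, 4 rose in stimulated and 1 in unstimulated cells (edgeR), where 11.7% and 4.45% of all genes were called higher. Limma on TPM called 2 of them higher in stimulated and 1 in unstimulated cells. Ncr1 was below 1 CPM in every library. The CD4 T cell markers rose as well, 6 of 8 in stimulated and 5 of 8 in unstimulated cells (edgeR). With limma on TPM, 1 of the 8 was called higher in stimulated and 0 in unstimulated cells. In unstimulated vehicle the 6 B cell markers summed to 519 to 779 CPM, beside 777 to 906 CPM for the CD4 T cell markers. RNA of B cell markers was thus present in these libraries. The part of B cells, natural killer cells and the CD4 markers in the Gbp results was not tested.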

How the data were processed

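Estimated counts and TPM values were deposited by the authors, 1 table of transcripts per library. The submitters' processing notes name cutadapt, kallisto and mm10. Their versions, and the annotation, were not given in the sources used here. Per the labels, libraries were made with Clontech SMART-seq. Of 109617 transcripts, 108214 matched GENCODE M21 with the version of the identifier ignored, and those unmatched held 0.542% to 0.829% of counts. The TPM values the authors deposited were summed per gene. No replicate number marks a shared animal or day in the labels.

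Estimated counts were summed per gene, rounded, filtered with filterByExpr, scaled by TMM and fitted in R 4.3.3 by the quasi-likelihood functions of edgeR 4.0.16 (robust, 2-sided), all 9 libraries and 4 group coefficients in the same model. Benjamini-Hochberg adjustment ran over 14011 genes, and calls needed an adjusted p under 0.05. Each SE was taken as the size of the log2 change over the root of its F statistic. The biological coefficient of variation came to 0.244. Over all genes the compound 10 changes had a median SE of 0.298 in stimulated and 0.325 in unstimulated cells. Ribosomal RNA includes the genes that overlap its repeat. The test was checked on simulated counts. Similar paralogs were grouped by coding-sequence identity of at least 80%, in place of protein identity, which was not used here. Alternatives were other scalings and filters, DESeq2 1.42.0, limma 3.58.1 on log2(TPM + 1) and log2(TPM + 0.1), a replicate block, the libraries of the groups compared only, ribosomal RNA genes left out, protein-coding transcripts only, and each library left out. Named beside the members, by rule, were Gbp2b, Gbp10 and Gbp11, the 5 genes most like the summed family, at most 3 called genes per pathway list with the smallest p, and Ifng, Ifngr1, Ifngr2, Irf1 and Irf8. A gene of the factor list is not reported here. Gbp2-ps was added after its values were seen. The members and lists were chosen with earlier results of these data known.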

Additional observations from a re-analysis of the deposited data

Results flagged for a closer look

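In CPM, Gbp5 moved in opposite directions with stimulation in the compound 10 and vehicle settings. It had 3.69, 3.65 and 4.10 CPM in stimulated compound 10, against 1.49 and 3.15 CPM in unstimulated compound 10, and every stimulated library was higher. In TPM these groups overlapped, at 0.921, 1.06 and 0.905 TPM stimulated and 0.464 and 1.11 TPM unstimulated. The change on log2(TPM + 1) was 0.16 (SE 0.28). Estimated counts were 46, 56 and 47 stimulated, and 23 and 57 unstimulated. Gbp5 had 18.4 and 30.9 CPM in stimulated vehicle, against 43.0 and 40.9 CPM in unstimulated vehicle, and both stimulated libraries were lower. The stimulation change under compound 10 minus that in vehicle was 1.46 on the log2 scale (SE 0.44). The difference was not tested.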

How the results depend on the processing

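The sum of the 8 genes, Gbp2, Gbp3, Gbp5 and Gbp7 stayed called lower in unstimulated cells under all 22 alternatives, Gbp4 under 21 and Gbp6 under 15, whereas Gbp8 passed in 4 and Gbp9 in 1. Between 5 and 7 members were called lower. In stimulated cells all 8 changes kept their sign under 21 alternatives. Over all genes, 1031 were called with compound 10 in unstimulated cells, against 1569 with no filter, 231 on log2(TPM + 1), 177 on log2(TPM + 0.1) and 174 to 1457 with a library left out, the lowest without unstimulated compound 10 library 1. In stimulated cells 3234 were called, against 1195 and 1263 on these TPM scales and 1973 to 3167 with a library left out, the lowest without vehicle library 2. Stimulation in vehicle gave 3940, against 2541 on log2(TPM + 0.1) and 2425 to 4347 with a library left out. Stimulation under compound 10 gave 3052, against 1506 to 3085. Fewer libraries entered the fits that left one out, and the cause of the other shifts was not tested. On log2(TPM + 1) the median of all genes moved by -0.17 with stimulation in vehicle and -0.21 under compound 10, and the calls split into 978 higher and 1672 lower, and 595 and 1745. Without both vehicle libraries richest in ribosomal RNA, chosen after seeing the data, 295, 1827 and 1597 genes were called in the first 3 comparisons, and the family sum changed by 0.0037 with stimulation in vehicle. Under compound 10 that sum changed by 0.43 and 0.44 on the TPM scales and 1.11 with protein-coding transcripts. The sign of single members changed with stimulation only, for Gbp2, Gbp3, Gbp6 and Gbp7 in vehicle and Gbp8 under compound 10. With a replicate block 878, 2679, 3871 and 2382 genes were called, and 6 members stayed called lower in unstimulated cells. Libraries with the same number deviated together with r = -0.10 between the unstimulated groups and 0.33 between the vehicle groups, with 2 shared numbers per comparison. The crossed pairing in the unstimulated libraries, chosen after seeing the data, gave 1885 genes. Counts of 23 and 57 behind Gbp5 in unstimulated compound 10 limit its precision.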
